A study of Mus musculus with 3 samples.

Results

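The G1 cyclins and their regulators are a set of 10 mouse genes, of 17997 with a value in at least 1 of 3 RNA sequencing libraries. They are 3 D-type cyclin genes (Ccnd1, Ccnd2, Ccnd3), 2 E-type cyclin genes (Ccne1, Ccne2), the kinase genes Cdk4 and Cdk6, the inhibitor gene Cdkn1b and the pocket protein genes Rb1 and Rbl1. The set was chosen by function with earlier results of these libraries known, among them the levels of Ccnd1, Ccnd2 and Ccne1. The values below are therefore a description of the members, with no test. All 10 were found by their Entrez gene numbers, and their counts were whole numbers in every library.

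The study asked about the role of Lef1, a transcription factor that beta-catenin binds in Wnt signalling, in mouse embryonic stem cells. All 3 cultures were 46C cells, a strain 129 line with a fluorescent reporter at the Sox1 locus, grown on gelatin with serum and LIF (leukemia inhibitory factor). One culture carried the empty vector PB and was harvested at passage 2, one carried PB-Lef1 and was harvested at passage 2, and one carried PB-Lef1 and was harvested at passage 5. The libraries are called PB (the empty-vector control), PB-Lef1 P2 and PB-Lef1 P5. The promoter that drives the introduced Lef1, and whether each culture was a clone or a pool, are not stated by the labels. Each group has n = 1 library, so no spread between cultures is known and no p-value is given. PB-Lef1 P5 differs from PB by the introduced gene and by passage, which cannot be told apart here.

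The D-type cyclins bind Cdk4 or Cdk6 in early G1, the gap before DNA synthesis, and start the phosphorylation of the retinoblastoma (pocket) proteins. The E-type cyclins then bind Cdk2 and complete it, which frees the E2F factors to switch on genes for DNA synthesis. Cdkn1b (p27) binds and inhibits cyclin E and Cdk2. Mouse embryonic stem cells are known for a short G1 and for abundant cyclin E. In human colon cancer cells the cyclin D1 gene is a described target of beta-catenin and its TCF/LEF partners.

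The libraries held between 9170554 and 9380813 expected counts (estimated reads per gene) each. Lef1 was at 1.49 FPKM in PB, 135 in PB-Lef1 P2 and 214 in PB-Lef1 P5, which follows the labels. FPKM stands for fragments per kilobase of transcript, scaled to library size, so it allows levels of different genes to be set side by side. Of 12 pluripotency markers, all had at least 1 FPKM, and their summed level was 6437, 5805 and 6317 FPKM in PB, PB-Lef1 P2 and PB-Lef1 P5. Dppa5a alone gave 3771, 3818 and 3816 FPKM of these sums. Within the list, Tbx3 was called higher in PB-Lef1 P2 (29.6 to 77.6 FPKM), while Pou5f1 was at 0.620 and Utf1 at 0.514 times its PB level there without a call, where a call is a 2-fold rule given with the comparisons. Parentheses give 95% counting intervals, which leave out the difference between cultures and duplicate amplified reads.

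The 250 bases before the RefSeq start site are shown for 5 members, since these 5 differed by over 1.5-fold between PB and PB-Lef1 P2 and have an entry in the promoter table. Of the 10 members, 6 have an entry, with 7 start sites in all. Ccnd1, Ccnd2, Ccne2 and Rb1 have no entry, so their promoters were not searched for motifs. Each sequence runs 5′ to 3′ in the direction of the gene, from RefSeq on GRCm38.p6, and capitals mark the motif matches named after it. Cdk4 lies on the plus strand at chr10:127063285-127063534, Ccne1 on the minus strand at chr7:38107491-38107740, Cdk6 on the plus strand at chr5:3343643-3343892, Cdkn1b on the plus strand at chr6:134920151-134920400 and Rbl1 on the minus strand at chr2:157204535-157204784.
Cdk4: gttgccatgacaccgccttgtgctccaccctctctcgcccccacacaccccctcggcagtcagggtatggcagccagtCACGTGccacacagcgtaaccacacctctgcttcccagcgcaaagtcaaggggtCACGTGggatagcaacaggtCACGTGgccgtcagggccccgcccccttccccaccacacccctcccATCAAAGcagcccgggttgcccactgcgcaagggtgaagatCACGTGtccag
Ccne1: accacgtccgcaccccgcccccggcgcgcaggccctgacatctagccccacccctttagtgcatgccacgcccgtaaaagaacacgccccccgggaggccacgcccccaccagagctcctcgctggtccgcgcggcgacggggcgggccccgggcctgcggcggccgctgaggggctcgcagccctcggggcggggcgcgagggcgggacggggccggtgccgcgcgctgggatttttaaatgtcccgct
Cdk6: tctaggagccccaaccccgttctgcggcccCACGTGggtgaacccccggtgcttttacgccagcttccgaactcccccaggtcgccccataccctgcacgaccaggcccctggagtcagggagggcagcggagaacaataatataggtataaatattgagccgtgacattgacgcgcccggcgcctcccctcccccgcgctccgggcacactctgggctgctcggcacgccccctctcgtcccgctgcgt
Cdkn1b: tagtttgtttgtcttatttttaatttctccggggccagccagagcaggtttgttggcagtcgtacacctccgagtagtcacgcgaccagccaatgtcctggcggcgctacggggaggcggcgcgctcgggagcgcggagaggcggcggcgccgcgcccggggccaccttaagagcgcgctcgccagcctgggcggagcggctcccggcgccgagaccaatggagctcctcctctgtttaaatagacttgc
Rbl1: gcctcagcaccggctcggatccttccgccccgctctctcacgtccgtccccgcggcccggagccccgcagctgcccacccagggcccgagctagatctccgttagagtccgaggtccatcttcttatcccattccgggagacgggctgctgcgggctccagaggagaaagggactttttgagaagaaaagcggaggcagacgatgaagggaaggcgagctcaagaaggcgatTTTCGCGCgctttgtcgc

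A set of 3 kinds of motif was searched on both strands, and none of the matches overlap each other. The TCF/LEF words CTTTGAT and CTTTGAA occurred once, in Cdk4 from base -52 to base -46 on the opposite strand. The printed sequence shows its reverse complement there. Of all 32851 start sites in the table, 7.48% hold such a word. The E-box CACGTG, the word bound by Myc with Max, occurred 4 times in Cdk4 and once in Cdk6. Of all start sites, 6.02% hold it. One of the E2F words TTTCCCGC, TTTCGCGC, TTTGCCGC and TTTGGCGC occurred in Rbl1, 18 bases before its start, and 1.86% of all start sites hold one. Ccne1, Cdkn1b and both start sites of Ccnd3 held none of these words within 250 bases. A match is a description of the letters and shows no binding.

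Cyclin D1 and cyclin D2 transcripts stood in opposite positions in PB-Lef1 P2, while the most abundant D-type cyclin transcript, Ccnd3, varied least of the 3. Ccnd1 was at 14.7 FPKM (13.5 to 16.1) in PB, 3.79 FPKM (3.17 to 4.50) in PB-Lef1 P2 and 15.3 FPKM (14.0 to 16.6) in PB-Lef1 P5. PB-Lef1 P2 was the low library, 3.89-fold (3.20 to 4.75) under PB, and the intervals of the other two overlapped. Ccnd2 was at 0.49 FPKM (0.320 to 0.718) in PB, 5.68 FPKM (5.05 to 6.36) in PB-Lef1 P2 and 0.89 FPKM (0.656 to 1.18) in PB-Lef1 P5. Here PB-Lef1 P2 was the high library, 11.6-fold (7.76 to 18.0) over PB. The reads behind Ccnd2 were 26, 298 and 48, so its level in both other libraries rests on few reads. In bulk RNA, a change in the share of cells that carry a transcript cannot be told apart from a change in its amount per cell.

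Ccnd3 was at 170.1 FPKM (164 to 176) in PB, 156 FPKM (150.5 to 162) in PB-Lef1 P2 and 234 FPKM (228 to 242) in PB-Lef1 P5. Its intervals did not overlap between any pair of libraries, and PB-Lef1 P5 was the highest, 1.38-fold (1.32 to 1.44) over PB. Ccnd3 made up 91.8%, 94.3% and 93.6% of the summed D-type cyclin FPKM in PB, PB-Lef1 P2 and PB-Lef1 P5. That sum was 185 FPKM in PB, 166 FPKM in PB-Lef1 P2 and 251 FPKM in PB-Lef1 P5. The share of Ccnd1 was 7.95% (7.28 to 8.67) in PB, 2.29% (1.91 to 2.71) in PB-Lef1 P2 and 6.09% (5.59 to 6.63) in PB-Lef1 P5. The share of Ccnd2 was 0.264% (0.173 to 0.388), 3.43% (3.04 to 3.85) and 0.355% (0.262 to 0.471) in the same order. The order of the minor D-type cyclins thus differed by library, with Ccnd2 above Ccnd1 in PB-Lef1 P2 and under it in the other two.

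**Figure D1:**
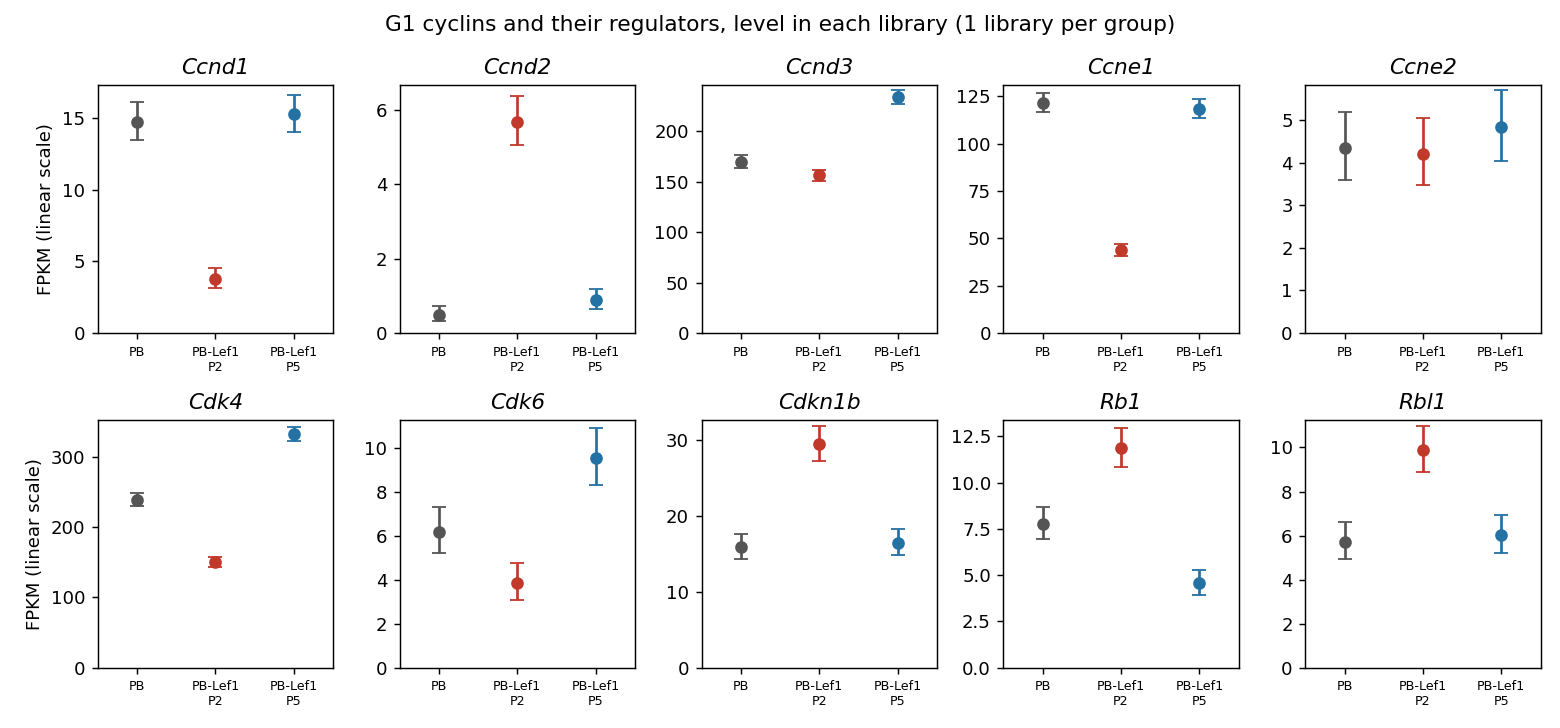
Level of each of the 10 genes in FPKM (linear axis from 0, own scale for each gene) in PB, PB-Lef1 P2 and PB-Lef1 P5. Points are single libraries and bars are 95% counting intervals; Ccnd1 and Ccne1 are lowest in PB-Lef1 P2, at 3.79 and 43.8 FPKM, while Ccnd2, Cdkn1b, Rb1 and Rbl1 are highest there.

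Of the E-type cyclins, the abundant Ccne1 was low in PB-Lef1 P2 and the scarce Ccne2 was at a like level in all 3 libraries. Ccne1 was at 122 FPKM (117 to 127) in PB, 43.8 FPKM (40.8 to 47.0) in PB-Lef1 P2 and 119 FPKM (114 to 124) in PB-Lef1 P5. PB-Lef1 P2 lay 2.78-fold (2.56 to 3.02) under PB, and the intervals of PB and PB-Lef1 P5 overlapped. Ccne2 was at 4.35 FPKM (3.61 to 5.20) in PB, 4.21 FPKM (3.48 to 5.05) in PB-Lef1 P2 and 4.83 FPKM (4.05 to 5.72) in PB-Lef1 P5. All 3 of its intervals overlapped, and its fold in PB-Lef1 P2 over PB was 0.968 (0.743 to 1.26). The summed E-type cyclin level was 126 FPKM in PB, 48.0 FPKM in PB-Lef1 P2 and 123 FPKM in PB-Lef1 P5. Ccne2 made up 3.45% (2.87 to 4.12) of it in PB, 8.77% (7.26 to 10.5) in PB-Lef1 P2 and 3.91% (3.29 to 4.62) in PB-Lef1 P5.

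Both partner kinases of the D-type cyclins were lowest in PB-Lef1 P2 and highest in PB-Lef1 P5. Cdk4 was at 239 FPKM (230.3 to 248) in PB, 150.1 FPKM (143 to 157) in PB-Lef1 P2 and 332 FPKM (322 to 343) in PB-Lef1 P5. Its intervals lay apart in all 3 libraries, with PB-Lef1 P2 1.59-fold under PB and PB-Lef1 P5 1.39-fold over it. Cdk6 was at 6.19 FPKM (5.20 to 7.31) in PB, 3.85 FPKM (3.08 to 4.76) in PB-Lef1 P2 and 9.52 FPKM (8.29 to 10.9) in PB-Lef1 P5. Its order was that of Cdk4, with 1.61-fold (1.22 to 2.13) less in PB-Lef1 P2 and 1.54-fold (1.24 to 1.92) more in PB-Lef1 P5 than in PB. Cdk4 stayed at 38.6 (32.5 to 46.1), 39.0 (31.4 to 49.1) and 34.9 (30.4 to 40.2) times the level of Cdk6 in PB, PB-Lef1 P2 and PB-Lef1 P5, and these intervals overlapped.

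Cdkn1b, the inhibitor, was at 15.9 FPKM (14.3 to 17.7) in PB, 29.4 FPKM (27.2 to 31.8) in PB-Lef1 P2 and 16.5 FPKM (14.8 to 18.3) in PB-Lef1 P5. PB-Lef1 P2 was the high library, 1.85-fold (1.62 to 2.12) over PB, and the other two overlapped. Ratios of 2 genes within a library do not depend on the scaling between libraries. The level of Ccne1 was 7.65 times that of Cdkn1b (6.82 to 8.59) in PB, 1.49 times (1.34 to 1.66) in PB-Lef1 P2 and 7.20 times (6.44 to 8.06) in PB-Lef1 P5. The ratio of Cdk4 to Cdkn1b was 15.02 (13.4 to 16.8) in PB, 5.10 (4.66 to 5.59) in PB-Lef1 P2 and 20.2 (18.1 to 22.5) in PB-Lef1 P5. Both ratios were lowest in PB-Lef1 P2. The ratio of Ccnd1 to Ccnd2 was 30.1 (20.3 to 46.5) in PB, 0.667 (0.539 to 0.823) in PB-Lef1 P2 and 17.2 (12.8 to 23.6) in PB-Lef1 P5.

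**Figure D2:**
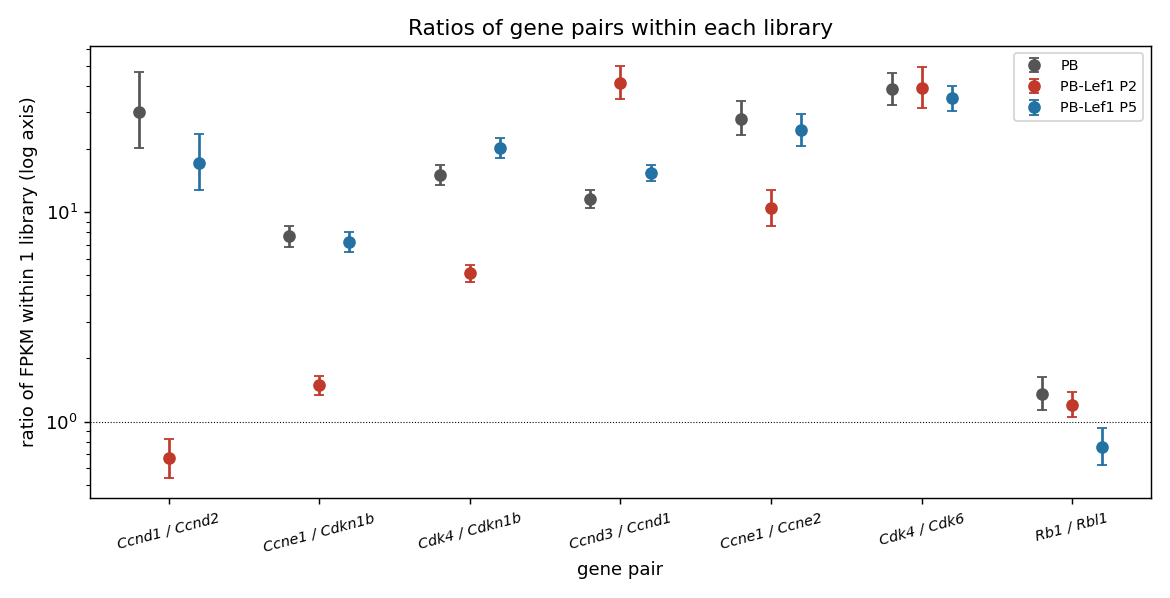
Ratio of the FPKM values of 2 genes within 1 library (log axis) for 7 gene pairs in PB, PB-Lef1 P2 and PB-Lef1 P5. Points are single libraries and bars are 95% counting intervals; the ratio of Ccnd1 to Ccnd2 lies under 1 in PB-Lef1 P2 alone, at 0.667, whereas the ratio of Cdk4 to Cdk6 stays between 34.9 and 39.0.

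The pocket protein genes Rb1 and Rbl1 (p107), whose products hold E2F factors in check, were both highest in PB-Lef1 P2 and differed in PB-Lef1 P5. Rb1 was at 7.79 FPKM (6.97 to 8.68) in PB, 11.9 FPKM (10.8 to 13.0) in PB-Lef1 P2 and 4.57 FPKM (3.95 to 5.26) in PB-Lef1 P5. Its intervals lay apart in all 3 libraries, with PB-Lef1 P2 1.52-fold (1.32 to 1.76) over PB and PB-Lef1 P5 1.71-fold (1.43 to 2.04) under it. Rbl1 was at 5.73 FPKM (4.93 to 6.62) in PB, 9.87 FPKM (8.87 to 11.0) in PB-Lef1 P2 and 6.03 FPKM (5.23 to 6.92) in PB-Lef1 P5. PB-Lef1 P2 lay 1.72-fold (1.44 to 2.07) above PB, and the other two overlapped. Rbl1 has 2 listed transcripts, and the length used for it was 3554 bases in PB, 3958 in PB-Lef1 P2 and 3616 in PB-Lef1 P5. Counted as depth-scaled reads, without the length, its fold in PB-Lef1 P2 was 1.92. The third family member, Rbl2 (p130), is not in the set of 10 and was at 5.28, 4.38 and 2.98 FPKM in the same order. Rb1 made up 41.4% (37.9 to 45.0), 45.4% (42.4 to 48.5) and 33.7% (29.7 to 37.8) of the summed level of the 3 pocket protein genes.

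Ranked by level, the members in PB ran Cdk4, Ccnd3, Ccne1, Cdkn1b, Ccnd1, Rb1, Cdk6, Rbl1, Ccne2 and Ccnd2. Neighbours with overlapping intervals were Cdkn1b with Ccnd1, Rb1 with Cdk6, Cdk6 with Rbl1 and Rbl1 with Ccne2. In PB-Lef1 P2 the order was Ccnd3, Cdk4, Ccne1, Cdkn1b, Rb1, Rbl1, Ccnd2, Ccne2, Cdk6 and Ccnd1. There the intervals of Ccnd3 and Cdk4, of Rb1 and Rbl1, of Ccne2 and Cdk6 and of Cdk6 and Ccnd1 overlapped, and those of Ccnd2 and Ccne2 met at 5.05 FPKM. In PB-Lef1 P5 the order was Cdk4, Ccnd3, Ccne1, Cdkn1b, Ccnd1, Cdk6, Rbl1, Ccne2, Rb1 and Ccnd2, with overlap between Cdkn1b and Ccnd1, Rbl1 and Ccne2, and Ccne2 and Rb1.

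Genes were called higher or lower when log2((x + 1)/(y + 1)) of the FPKM values was at least 1 in size, with at least 3 FPKM and 20 reads in the higher library. In PB-Lef1 P2 against PB, all 10 members passed this minimum, Ccnd2 only through PB-Lef1 P2. Ccnd2 was called higher (log2 ratio 2.16), against 6.49% of all 10651 genes that passed. Ccnd1 and Ccne1 were called lower (log2 ratios of -1.72 and -1.45), against 1.82% of all genes. The other 7 were not called, with log2 ratios of -0.67 for Cdk4, -0.57 for Cdk6, -0.12 for Ccnd3, -0.04 for Ccne2, 0.55 for Rb1, 0.69 for Rbl1 and 0.85 for Cdkn1b. Counting intervals lay apart for 9 members, 4 higher and 5 lower, as they did for 57.1% of all genes. These counts were known when the members were chosen, so nothing is read from them. The median of the members was -0.08 and that of the 12894 genes at 1 FPKM or more was 0.11.

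In PB-Lef1 P5 against PB, 9 members passed the minimum and none of the 10 was called higher or lower, against 1.40% and 1.28% of all 10121 genes. With no replicate no p-value stands behind this count, and counting intervals lay apart for 4 members, Cdk4, Cdk6 and Ccnd3 higher and Rb1 lower, as they did for 36.8% of all genes. Ccnd2 did not pass because it was under 3 FPKM in both libraries. The log2 ratio was 0.05 for Ccnd1, -0.04 for Ccne1, 0.05 for Cdkn1b and 0.06 for Rbl1. Of the 8 members that differed by over 1.5-fold between PB and PB-Lef1 P2, these 4 were at 0.975 to 1.05 times the PB level in PB-Lef1 P5. The other 4 were Ccnd2, at 1.82 times (1.10 to 3.05) the PB level on few reads, Cdk4 at 1.39 times, Cdk6 at 1.54 times and Rb1 at 0.587 times. The comparisons share the empty-vector library, so their values are given side by side only.

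**Figure D3:**
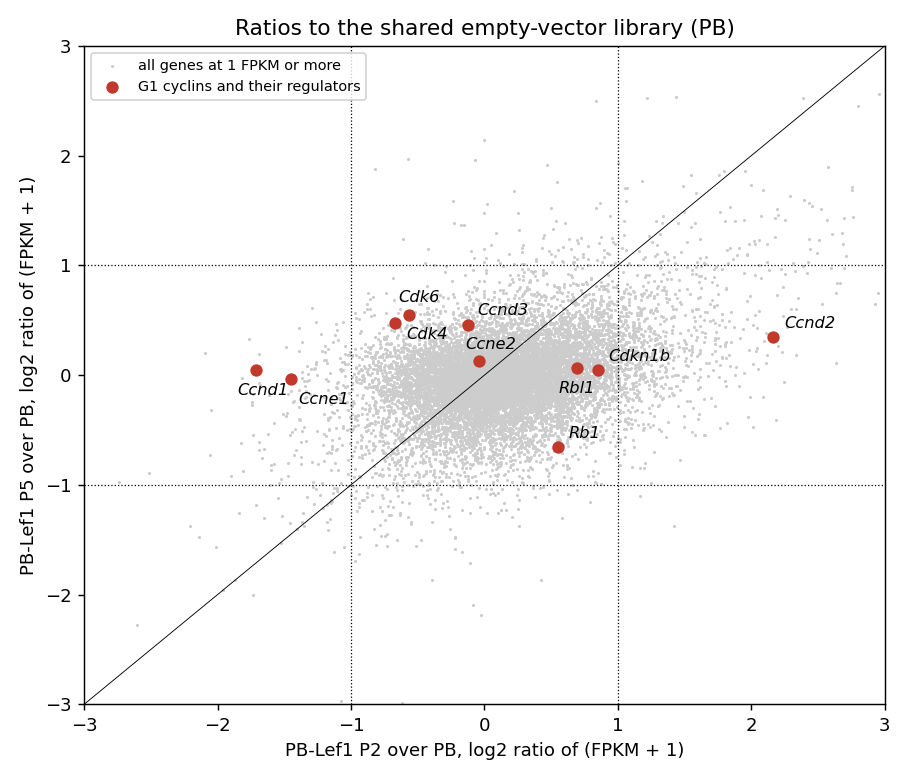
Log2 ratio of (FPKM + 1) of PB-Lef1 P2 over PB (x axis) and of PB-Lef1 P5 over PB (y axis), with the 10 members in red, the other genes at 1 FPKM or more in grey and dotted lines at 2-fold; 26 genes lie beyond the axes. Ccnd1 (-1.72), Ccne1 (-1.45) and Ccnd2 (2.16) lie past 2-fold on the x axis, and all 10 members lie within 2-fold on the y axis.

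In PB-Lef1 P5 against PB-Lef1 P2, 4 of 10 members were called higher, Ccnd1, Ccne1, Cdk4 and Cdk6, against 1.88% of all 10593 genes. Their levels were 4.03-fold (3.32 to 4.92), 2.71-fold (2.49 to 2.94), 2.21-fold (2.09 to 2.34) and 2.47-fold (1.92 to 3.22) those of PB-Lef1 P2. Ccnd2 and Rb1 were called lower, 6.38-fold (4.69 to 8.85) and 2.60-fold (2.20 to 3.08), against 6.86% of all genes. Cdkn1b was 1.79-fold (1.57 to 2.04) and Rbl1 1.64-fold (1.37 to 1.96) lower without being called. Intervals lay apart for 9 members and for 60.1% of all genes. Ccne2 was again the exception, 1.15-fold (0.888 to 1.48). This comparison shares PB-Lef1 P2 with that against PB, and the levels of Ccnd1, Ccnd2 and Ccne1 were known beforehand. Nothing is read from its counts either.

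Of the other CDK inhibitor genes, Cdkn1c was lower in both Lef1 libraries and the rest were not called. Cdkn1c (p57), an imprinted gene, was at 31.9 FPKM (29.3 to 34.7) in PB, 14.9 FPKM (13.1 to 16.8) in PB-Lef1 P2 and 10.1 FPKM (8.68 to 11.7) in PB-Lef1 P5, and was called lower in each Lef1 library against PB. Unlike Cdkn1b, it was lowest in PB-Lef1 P5. Cdkn1a (p21), the p53-responsive inhibitor, was at 55.3 FPKM in PB, 65.8 in PB-Lef1 P2 and 33.5 in PB-Lef1 P5. Of the inhibitors of Cdk4 and Cdk6, Cdkn2a, Cdkn2b and Cdkn2c were scarcer. Cdkn2a was at 2.74, 5.41 and 4.39 FPKM, Cdkn2b at 3.57, 2.38 and 2.79 FPKM and Cdkn2c at 0.99, 2.20 and 1.00 FPKM in the same order. Cdkn2d was at 11.1, 14.0 and 13.5 FPKM, and its intervals overlapped those of Cdkn1c in both Lef1 libraries. The Cdkn2a row may hold reads of both products of that locus, p16 and p19Arf.

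E2F target genes of S phase, the phase of DNA synthesis, were lower in PB-Lef1 P2 as a list, although none of the 17 was called there. Their median log2 ratio in PB-Lef1 P2 was -0.61, beside 0.11 for all genes, and 16 of 17 lay under the median of all genes, also with median-of-ratios, TMM and CPM scaling. Their summed level was 1895 FPKM in PB, 1344 FPKM in PB-Lef1 P2 and 2016 FPKM in PB-Lef1 P5. As examples chosen after their values were seen, the helicase subunit gene Mcm2 was at 136 FPKM (132 to 140.0) in PB, 77.5 FPKM (74.4 to 80.7) in PB-Lef1 P2 and 148 FPKM (144 to 152) in PB-Lef1 P5. The sliding clamp gene Pcna was at 290.1 FPKM in PB, 173 FPKM in PB-Lef1 P2 and 343 FPKM in PB-Lef1 P5. The 1 exception was Mybl2, with a log2 ratio of 0.17. The list's median in PB-Lef1 P5 against PB was 0.11, beside -0.02 for all genes. Tyms (thymidylate synthase) was called higher in PB-Lef1 P5 against PB-Lef1 P2, from 22.2 to 45.4 FPKM, but its counts were not whole, so its level is less certain.

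The remaining lists of the cell cycle held no called gene in any of the 3 comparisons. Of 9 other cyclin and kinase genes, Cdk2, the partner of the E-type cyclins, was at 47.4 FPKM (44.5 to 50.5) in PB, 56.0 FPKM (52.8 to 59.3) in PB-Lef1 P2 and 56.8 FPKM (53.6 to 60.1) in PB-Lef1 P5. Ccna2, the S phase cyclin gene, was at 93.8 FPKM, 112 FPKM and 94.3 FPKM in the same order. The 16 genes for Rbl2, the E2F and DP factors and the DREAM complex had a median of -0.09 in PB-Lef1 P2 and 0.13 in PB-Lef1 P5 against PB. The 18 measured genes for phosphatases, ubiquitin ligases and their regulators, such as those that act on cyclin E and p27, had medians of -0.02 and -0.04. The 10 mitotic genes had medians of 0.20 and -0.08, and their summed level was 827 FPKM, 912.5 FPKM and 808 FPKM in PB, PB-Lef1 P2 and PB-Lef1 P5. All-gene medians for these comparisons were 0.11 and -0.02.

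**Figure D4:**
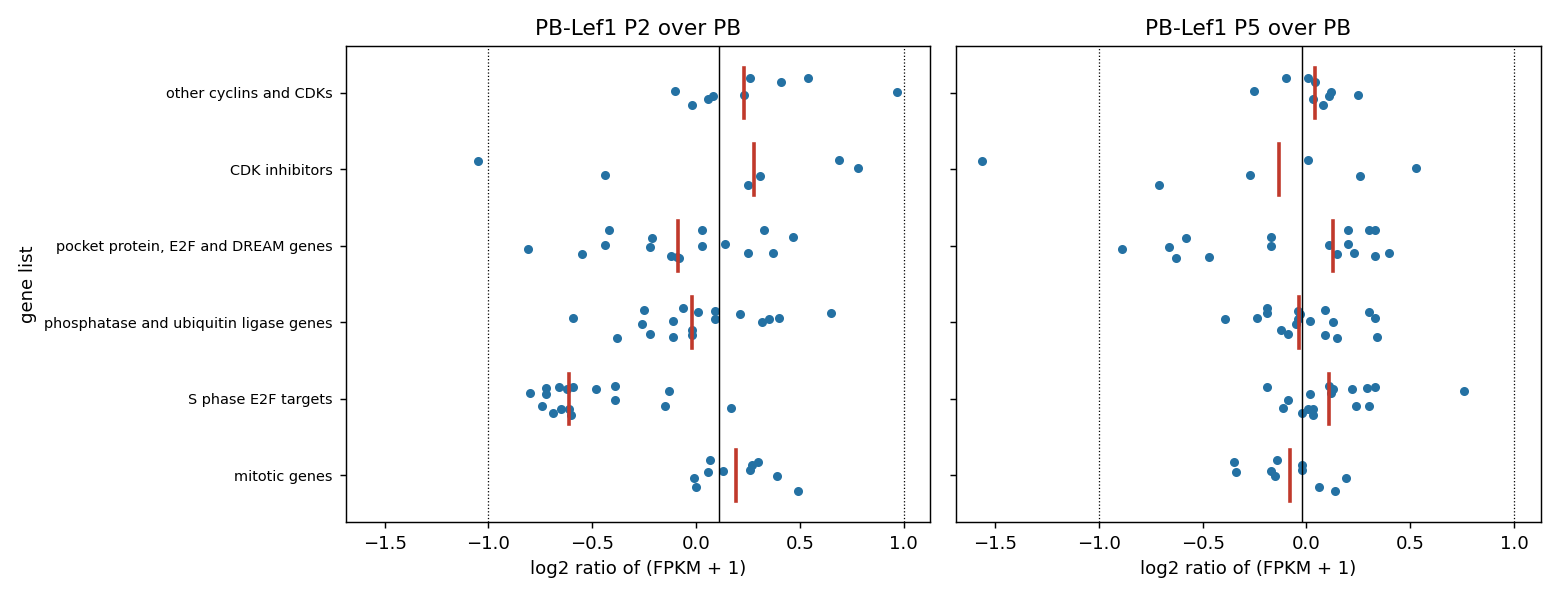
Log2 ratio of (FPKM + 1) of each gene at 1 FPKM or more in 6 lists, for PB-Lef1 P2 (left) and PB-Lef1 P5 (right) over PB. Points are genes with random vertical spread, red bars list medians, the solid line the median of all genes and dotted lines 2-fold; the S phase list has its median at -0.61 on the left and 0.11 on the right.

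Markers of endoderm, a lineage outside the embryonic stem cell state, were highest in PB-Lef1 P2 as a list and stayed above PB in PB-Lef1 P5. Of 19 primitive and visceral endoderm markers at 1 FPKM or more, 17 were called higher in PB-Lef1 P2 and 10 in PB-Lef1 P5 against PB, and 15 were called lower in PB-Lef1 P5 against PB-Lef1 P2. Over all genes that passed the minimum, 6.49% were called higher and 1.82% lower in PB-Lef1 P2 against PB. In PB-Lef1 P5, 1.40% were called higher and 1.28% lower against PB, and 6.86% lower against PB-Lef1 P2. All marker lists were chosen with earlier results known, so nothing is read from their counts. The endoderm markers summed to 318 FPKM in PB, 2497 FPKM in PB-Lef1 P2 and 735 FPKM in PB-Lef1 P5. PB-Lef1 P2, the library that stands apart in Ccnd1, Ccnd2, Ccne1 and Cdkn1b, thus also has the most endoderm marker RNA. Among them the endoderm transcription factor gene Gata4 was at 2.82 FPKM, 66.0 FPKM and 16.3 FPKM and Gata6 at 2.24 FPKM, 46.3 FPKM and 20.3 FPKM. Cubn, Hnf4a and Lrp2 went the other way in PB-Lef1 P5 and lay under PB, with overlapping intervals for Cubn. They were at 2.68, 2.13 and 7.83 FPKM in PB and at 2.53, 0.59 and 5.23 FPKM in PB-Lef1 P5. None of the 19 was at 0 in any library. The part of any endoderm cells in the levels of the members was not tested. Of 7 fibroblast and feeder markers with a value, 1 was called higher (Twist1, from 1.35 to 4.01 FPKM) and 0 lower in PB-Lef1 P2, and their sum was 19.9 FPKM, 16.8 FPKM and 9.65 FPKM. Thy1, which made up most of that sum, was at 15.7 FPKM, 9.54 FPKM and 7.21 FPKM and was called lower in PB-Lef1 P5 against PB. The collagen gene Col1a1 was at 1.28 FPKM, 0.87 FPKM and 0.41 FPKM and Pdgfrb at 1.29 FPKM, 2.36 FPKM and 0.50 FPKM, while Col3a1 and Dcn were at or under 0.06 FPKM throughout. The trophectoderm markers called higher in PB-Lef1 P2 were Krt8 and Krt18, which other simple epithelia also express, and 5 markers summed to 21.9, 100.2 and 33.8 FPKM. Of 6 neural markers, Nes was called higher in PB-Lef1 P2, and Neurod1 was called lower in each Lef1 library against PB. All 6 together summed to 41.3 FPKM, 24.7 FPKM and 30.3 FPKM. Tubb3, which was not called, gave 27.3 FPKM, 13.2 FPKM and 20.6 FPKM of these sums. The part of any fibroblast, trophectoderm or neural cells was not tested either. The markers Afp, Ttr, Lum, Postn, Prrx1 and Elf5 have no value here and do not enter these counts.

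Genes with the nearest pattern were sought for Ccnd1, Ccnd2 and Ccne1 as the distance between the pairs of log2 ratios to PB, over 3 libraries and 10713 genes. Nearest to Ccnd1 were Ifitm3 at a distance of 0.043, Tmem238 at 0.125 and Psmb10 at 0.126. In PB-Lef1 P2, Tmem238 rests on 10 reads (1.10 FPKM) and Psmb10 on 30 reads (2.71 FPKM). Their distances therefore also depend on the pseudocount of 1 FPKM. Ifitm3, an interferon-inducible membrane protein gene, was at 171 FPKM, 52.0 FPKM and 172 FPKM in PB, PB-Lef1 P2 and PB-Lef1 P5. Nearest to Ccnd2 were S100a1 at 0.048, Wsb1 at 0.067 and Pdzk1ip1 at 0.081, of which S100a1 and Pdzk1ip1 rest on at most 90 and 27 reads in a library. Wsb1 was at 25.5 FPKM, 114 FPKM and 33.6 FPKM. Ccnd2 was at 0.49 FPKM in PB, where the pseudocount of 1 FPKM shrinks its ratio, so these distances depend on that setting. With a pseudocount of 0.1 FPKM the log2 ratio of Ccnd2 in PB-Lef1 P2 against PB went from 2.16 to 3.29. Nearest to Ccne1 were Sulf1, an extracellular sulfatase gene, at 0.029, Slc5a11 at 0.098 and Rsu1 at 0.106. Of these, Slc5a11 rests on 40 reads (1.91 FPKM) in PB-Lef1 P2. Within a distance of 0.25 lay 7 genes for Ccnd1, 18 for Ccnd2 and 26 for Ccne1. With 3 libraries such likeness is a description of these libraries alone.

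Whether counting used strand is not given, and 8 of the 10 members overlap another annotated gene in the RefSeq table, as Ccnd1 does LTO1, Ccnd3 Bysl, Ccne2 Ints8, Cdk4 Tspan31 and Rb1 Lpar6. The overlap on GRCm38 was 5622 bases for Ccne2 with Ints8 and 2468 for Rb1 with Lpar6. It was 818 bases for Ccnd1 with LTO1, 359 for Ccnd3 with Bysl and 2 for Cdk4 with Tspan31. Of these 5 neighbours with a value, LTO1 was at 5.70 FPKM, 4.94 FPKM and 5.59 FPKM in PB, PB-Lef1 P2 and PB-Lef1 P5. Lpar6 was at 3.19 FPKM, 7.15 FPKM and 6.31 FPKM in the same order. Ints8 was at 25.3 FPKM, 25.1 FPKM and 25.1 FPKM, above Ccne2 in each library, so the like level of Ccne2 carries this limit. How reads in the shared stretches were assigned is unknown.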

How the data were processed

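Total RNA of 3 cultures was sequenced, with 1 library each. The submitters' processing notes name the aligner Bowtie 0.12.2 and the genome build mm8. The counting program and the strand setting are not given in any source used. Per the file headers, each deposited table gives expected counts (estimated reads per gene, used without rounding except for TMM and binomial intervals) and FPKM, with a transcript length. A gene with a row in at least 1 library was taken as 0 where it had none. Symbols came from a RefSeq table of GRCm38 through Entrez numbers (17951 of 17997 matched), used for names, promoter sequences and which genes overlap.

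Ratios used a pseudocount of 1 FPKM, which understates changes of low genes. Intervals are exact Poisson (levels) and Clopper-Pearson (folds and shares) at 95%, from the counts. The members and all lists were chosen with earlier results of these data known, and the gene pairs after the values were seen. The naming rule took the members, Lef1, called genes of the cell cycle lists, the CDK inhibitors, Rbl2, Cdk2 and Ccna2, and the 3 nearest genes by pattern. Marker genes, Mcm2, Pcna, Mybl2 and the overlapping neighbours were named outside it, after their values were seen. Calls and scalings were checked on simulated counts, with counting error alone and changes well past 2-fold in genes above a minimum level. That check does not cover changes near 2-fold, genes of low level or the spread between cultures. Tools were Python 3.11.15, scipy 1.17.1 and edgeR 4.0.16 (TMM only). Alternatives were other pseudocounts, minimum levels, scalings and a 1.5-fold threshold.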

Additional observations from a re-analysis of the deposited data

Results flagged for a closer look

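Ccnd3, Cdk4, Cdk6 and Rb1 lay on opposite sides of PB in the Lef1 libraries, with counting intervals apart from it in both. From PB-Lef1 P2 to PB-Lef1 P5 the log2 ratio of (FPKM + 1) was 0.58 for Ccnd3, 1.14 for Cdk4, 1.12 for Cdk6 and -1.21 for Rb1. The difference between the passages was not tested, since each rests on 1 library, and the control has passage 2 only.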

How the results depend on the processing

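None of the 30 member ratios changed sign under pseudocounts of 0.1 and 5 FPKM, median-of-ratios, TMM or CPM scaling, though Ccne1 in PB-Lef1 P5 against PB came to 0.00 with median-of-ratios. Of 150 such values 26 moved beyond their counting interval. Median-of-ratios and TMM shifted the median of all genes by -0.14 in PB-Lef1 P2 against PB and by 0.17 and 0.16 in PB-Lef1 P5 against PB-Lef1 P2. In PB-Lef1 P2 against PB the count of members called higher (1, Ccnd2) went to 0 with a pseudocount of 5 FPKM and with a minimum of 10 FPKM, and to 3 with a 1.5-fold threshold. In PB-Lef1 P5 against PB-Lef1 P2 the count called lower (2) went to 0 with a pseudocount of 5, to 1 with a minimum of 10 FPKM and to 4 at 1.5-fold, and the count called higher (4) went to 3, without Cdk6, with a pseudocount of 5 and with a minimum of 10 FPKM. In PB-Lef1 P5 against PB, 1 member (Rb1) was called lower at 1.5-fold. Over all genes, 885 calls in PB-Lef1 P2 against PB became 328, 478 and 2719 with a pseudocount of 5, a minimum of 10 FPKM and 1.5-fold, and 926 in PB-Lef1 P5 against PB-Lef1 P2 became 281, 503 and 2961. In PB-Lef1 P5 against PB, 272 became 67, 116 and 1038, and 414 with a pseudocount of 0.1. Stricter settings call fewer genes by construction. Requiring counting intervals apart, an alternative added after seeing the data, left every count of members as it was. Taken from expected counts with no length correction, the D-type share of Ccnd1 was 14.25%, 4.07% and 11.07% in PB, PB-Lef1 P2 and PB-Lef1 P5. That of Ccnd2 was 0.728%, 9.32% and 0.989%, and both kept the order of libraries they had by FPKM. The share of Ccnd3 was 85.03%, 86.62% and 87.95%, highest in PB-Lef1 P5, whereas by FPKM it was highest in PB-Lef1 P2. No paired analysis was possible because each group has 1 library. Depth limits Ccnd2, at 26 and 48 reads in PB and PB-Lef1 P5.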
